A study of Mus musculus with 12 samples.

Results

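Resident-like macrophages, the Ly6CloPD-L2lo fraction of skin Mo-Macs, were compared with classical monocytes, the Ly6ChiPD-L2lo fraction, in the IgE-CAI skin lesion. The members are 6 of the 12 bulk RNA-seq libraries of the series, 3 labelled Resident-like and 3 labelled Classical mono, taken by the cell subtype in their labels, and every gene of the count table was compared. Mo-Macs are cells of the monocyte and macrophage lineage, and IgE-CAI is a mouse model of chronic allergic skin inflammation in which IgE against a hapten is given before the haptenated antigen. All 6 libraries came from WT BALB/c mice that had received 300 μg of anti-TNP IgE intravenously and 10 μg of TNP-OVA in the ear skin, and the skin was taken on day 5 after the challenge. The study used male mice of 7 to 12 weeks, and every mouse behind these libraries had been challenged. Lesions were cut up and digested with enzymes at a warm temperature, and 5000 to 80000 cells per library were sorted by FACS from Mo-Macs. The study gates Mo-Macs as CD45+CD11b+ cells that lack Ly6G and Siglec-F. Its Methods add F4/80 to this gate, while its Results do not. The fractions differ in how much Ly6C they carry on the surface, while PD-L2 was low in both. The labels do not say whether the libraries of a fraction came from separate mice, so the p-values measure the spread between these libraries, which may be technical. In bulk RNA, fewer cells of a type and less RNA per cell cannot be told apart.

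Classical monocytes leave the bone marrow, circulate with much Ly6C on their surface and enter inflamed tissue, where they can lose Ly6C while turning into macrophages. Resident macrophages live in the tissue, clear dying cells and debris, and in skin share their space with Langerhans cells and dermal dendritic cells, which take up antigen and show it to T cells on MHC class II. Ly6C is also carried by plasmacytoid dendritic cells and by some lymphocytes.

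The total counts were 18113334 to 19844113 per resident-like library and 15400638 to 17599360 per classical monocyte library, so that 3 counts, taken as the limit that a count of 0 allows, stood for 0.151 to 0.195 counts per 1000000 (CPM) before normalization. These limits cover counting error only. A single ribosomal RNA gene took 8.37 to 9.97% of the counts of each library. Of 37775 genes, 22118 passed the filter on low counts and were tested in edgeR's quasi-likelihood fit of all 12 libraries. Between the fractions 5252 genes were called at an adjusted p under 0.05, or 23.7% of those tested, of which 2399 were higher (10.8%) and 2853 lower (12.9%) in resident-like macrophages. The lower genes had the larger changes, since 723 of them but 180 of the higher genes differed by 4-fold or more. The 3 and 3 libraries did not overlap for 5061 of the called genes. Among all 22118 genes tested, called or not, 7646 did not overlap, so a lack of overlap alone is common. Scaling moved the split: higher genes were 45.7% of the calls with TMM normalization, 24.1% with library size only, which shifted the median log2 fold change of all genes to -0.17, and 55.7% when libraries were scaled by pan-leukocyte genes, which shifted it to 0.13. Changes are given relative to a median of 0.00 with TMM. Counts of 3 or fewer in the lists below moved by up to 5 when single libraries were left out. The first principal component of the 6 libraries held 66.3% of the variance and set the fractions apart, and the second held 11.1%.

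**Figure D1:**
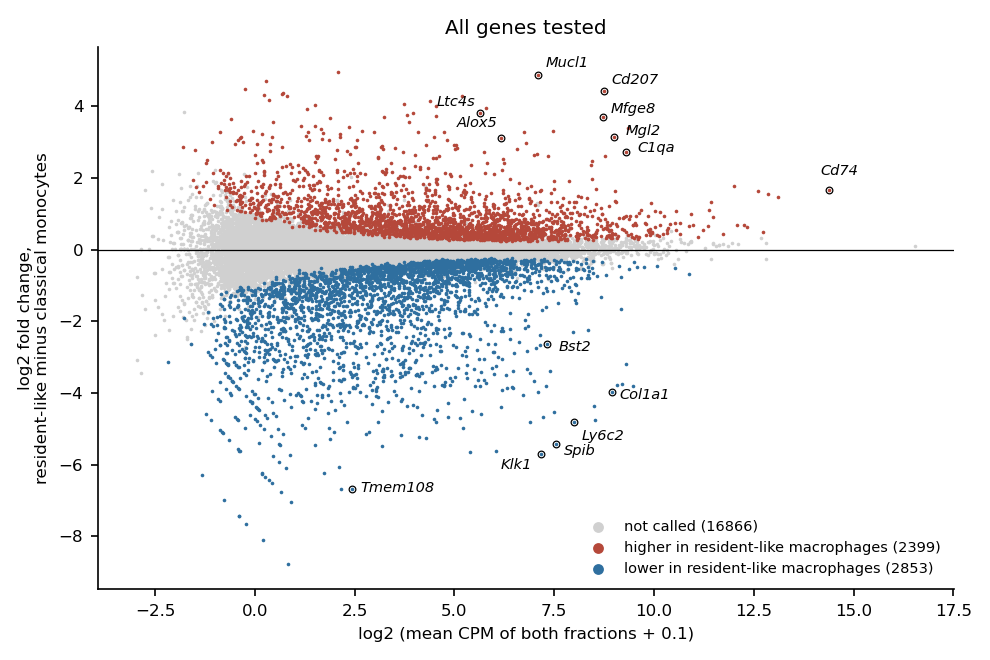
Each point is 1 of 22118 tested genes, with the log2 of the mean CPM of both fractions on the x axis and the log2 fold change, resident-like minus classical monocytes, on the y axis. The 2399 higher and 2853 lower genes are coloured, and the lower genes reach further from 0 than the higher ones.

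Values below are TMM-normalized CPM, which allow a gene to be compared between libraries but not with another gene, because they are not divided by transcript length. Libraries are given in the order of replicates 1, 2 and 3, means with their SD (n = 3), and log2 fold changes, resident-like minus classical monocytes, with their standard error (SE). Where a pair of levels stands in parentheses, the mean of the resident-like libraries comes first, then that of the classical monocyte libraries, then the log2 fold change.

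*Ly6c2*, a gene of the Ly6C antigen used in the sort, was at 15.9, 18.8 and 17.8 CPM in resident-like macrophages and at 606, 489 and 379 CPM in classical monocytes. The fractions lay far apart, as their labels say, and since Ly6C chose the cells this is a check of the labels and not a result. *Ly6c1*, its near-identical neighbor, was at 26.4 ± 4.02 and 707 ± 200.4 CPM, and reads of this pair could be split between them. *Ly6c2* lies at chr15:75108158-75111970 and *Ly6c1* at chr15:75044018-75048830 (GRCm38, both on the minus strand). In early and late CMDMs, the classical monocyte-derived macrophages of the PD-L2hi fractions, *Ly6c2* was at 49.2 ± 4.77 and 19.1 ± 2.71 CPM. *Pdcd1lg2*, which encodes PD-L2, was at 11.6, 8.48 and 8.64 CPM against 13.2, 13.1 and 16.1 CPM, so that it was a little lower in resident-like macrophages (log2 fold change -0.56 ± 0.14, adjusted p = 0.00707), and the call was lost with the pan-leukocyte scaling (adjusted p = 0.163). *Ly6g*, the neutrophil antigen excluded in the sort, had 0 counts in all 3 resident-like libraries and a mean of 0.254 CPM in classical monocytes.

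*Adgre1*, which encodes F4/80, was at 199, 179 and 169.5 CPM in resident-like macrophages and at 74.3, 80.8 and 98.6 CPM in classical monocytes, without overlap (log2 fold change 1.11 ± 0.14, adjusted p = 1.6e-05). *Csf1r*, the receptor for the macrophage growth factor M-CSF, was at 809.5, 679.8 and 680.5 CPM against 301, 348 and 534 CPM and was also higher (log2 fold change 0.87 ± 0.20, adjusted p = 0.00476). *Ccr2*, the chemokine receptor that brings monocytes into tissue, was at 426, 431 and 456 CPM against 363, 355 and 452 CPM. The *Ccr2* values overlapped and no difference was detected (log2 fold change 0.17 ± 0.15, adjusted p = 0.484). In early and late CMDMs *Ccr2* was at 128 ± 32.6 and 107 ± 7.93 CPM. The paper describes its resident-like cluster of single cells as low in *Ccr2*. *Itgam*, which encodes the CD11b of the gate, likewise overlapped at 188 ± 11.5 and 164 ± 32.7 CPM (adjusted p = 0.501). *Fcgr1*, the high-affinity IgG receptor CD64, was at 56.5 ± 5.17 and 87.8 ± 30.9 CPM (adjusted p = 0.069), and *Cx3cr1*, the fractalkine receptor, at 35.7 ± 11.4 and 44 ± 11.1 CPM (adjusted p = 0.42). *Ptprc*, which encodes CD45, was lower at 426 ± 41.3 against 725 ± 51.6 CPM (log2 fold change -0.77 ± 0.12, adjusted p = 1.3e-04), although both fractions were sorted as CD45+. Of the 12 genes of the sort and lineage, 11 were tested, of which 3 were higher, 4 lower and 4 not called. The share called was 63.6%, against 23.7% of all genes. *Ly6c2* and *Ly6c1*, whose antigen chose the fractions, are among the lower ones, so their calls were set by the sort.

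**Figure D2:**
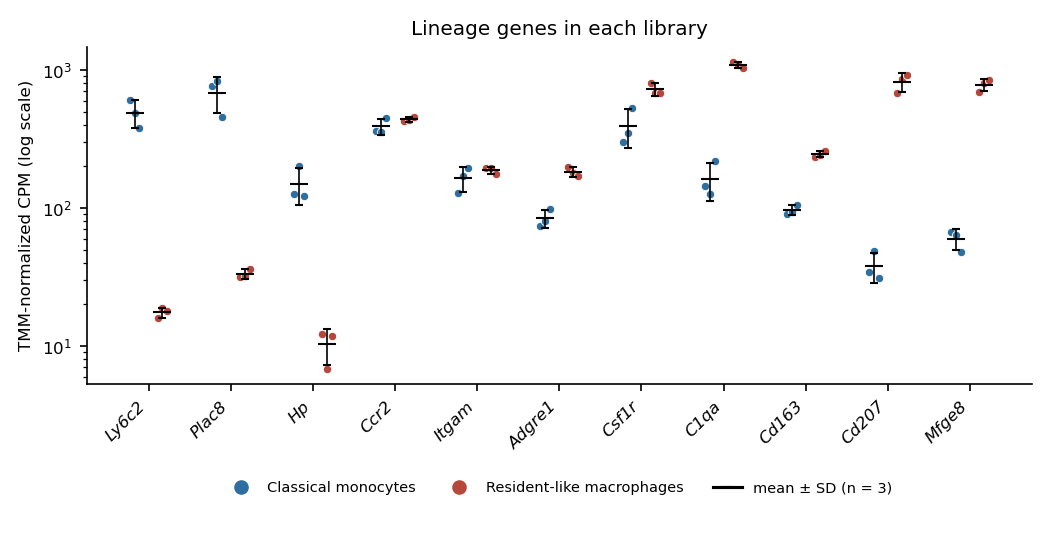
TMM-normalized CPM on a log scale in each of the 3 classical monocyte and 3 resident-like libraries, with mean ± SD, for 11 lineage genes. *Ly6c2*, *Plac8* and *Hp* were lower in all 3 resident-like libraries, *Ccr2* and *Itgam* overlapped, and *Adgre1*, *Csf1r*, *C1qa*, *Cd163*, *Cd207* and *Mfge8* were higher.

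Genes of classical monocytes were mostly lower in resident-like macrophages. Of 24 genes in the list, 15 were lower, 1 was higher and 8 were not called, with a median log2 fold change of -1.31. *Ly6c2* itself is among them, and without it 14 of 23 were lower. The higher one was *Gpr141* (92 against 68.4 CPM, 0.43), whose call was lost without any 1 library other than classical monocyte replicate 2 (adjusted p of 0.056 to 0.105) and with library size only (0.183). *Plac8*, a marker of Ly6Chi monocytes, was at 31.5, 32.1 and 36.4 CPM in resident-like macrophages and at 761, 832 and 457 CPM in classical monocytes (log2 fold change -4.36 ± 0.25, adjusted p = 3.1e-08). *Hp*, which encodes the hemoglobin-binding plasma protein haptoglobin, was at 12.2, 6.84 and 11.8 CPM against 126, 202 and 122 CPM (log2 fold change -3.86 ± 0.23, adjusted p = 3.3e-08). For both genes every resident-like library was below every classical monocyte library, by more than 10-fold in the mean. The matrix genes *Vcan* (17.7 against 111 CPM, -2.64) and *Thbs1* (114 against 536 CPM, -2.23), the chitinase-like *Chil3* (49.1 against 124 CPM, -1.33) and the lectin *Clec4e* (336 against 553 CPM, -0.72), which senses mycobacterial glycolipid, were lower by less. *Lyz2*, the lysozyme of myeloid cells, was at 7298 ± 616 and 5802 ± 1150.2 CPM and was not called (adjusted p = 0.123). *Cd14*, the co-receptor for lipopolysaccharide, was not called either, at 1235 ± 68.1 and 1646 ± 383 CPM (adjusted p = 0.122). The list of non-classical monocytes, the Ly6Clo cells of the blood that patrol vessels, was not higher as a group: 2 of 15 genes were higher, 7 lower and 6 not called, with a median of -0.39. Its lower members included *Ace* (4.17 against 31.6 CPM, -2.93) and *Treml4* (3.74 against 25.2 CPM, -2.74), and its higher members were *Itgax* (82.3 against 29 CPM, 1.51), which encodes CD11c, and the scavenger receptor *Cd36* (173 against 67.8 CPM, 1.35).

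Genes of tissue macrophages were mostly higher. Of 28 genes, 23 were higher, 0 lower and 5 not called, with a median log2 fold change of 1.17, and their summed level was 16488 to 16801 CPM in the resident-like libraries and 7409 to 10907 CPM in the classical monocyte libraries. In early and late CMDMs the mean sum was 15661 and 37000 CPM. The genes of C1q, which starts the classical complement pathway and tags dying cells, led the list. *C1qa* was at 1134, 1092 and 1039 CPM in resident-like macrophages and at 143, 126 and 220.0 CPM in classical monocytes (log2 fold change 2.74 ± 0.20, adjusted p = 1.2e-07). *C1qb* and *C1qc*, which encode the other chains of C1q, were higher by 2.61 ± 0.21 and 2.48 ± 0.20 on the log2 scale. *Cd163*, the receptor for hemoglobin bound to haptoglobin, was at 235, 242 and 259 CPM against 90.8, 93.5 and 106 CPM (log2 fold change 1.34 ± 0.19, adjusted p = 6.7e-05). *Mrc1*, the mannose receptor CD206, was at 801, 756 and 699 CPM against 239.9, 259.8 and 398 CPM (log2 fold change 1.33 ± 0.19, adjusted p = 7.7e-05). All 3 resident-like libraries were above all 3 classical monocyte libraries for both receptors. Also higher were *Pf4* (368 against 97.4 CPM), *Folr2* (114 against 35.6 CPM), a folate receptor of perivascular macrophages, *Lyve1* (15.3 against 4.28 CPM), a hyaluronan receptor, and *Timd4* (24.1 against 13.8 CPM), a receptor for phosphatidylserine. The members not called included *Fcgr1*, *Cx3cr1* and *Ccl8*. *Mertk*, an efferocytosis receptor, was not called either, at 12.3 ± 2.65 and 6.84 ± 2.84 CPM (adjusted p = 0.0669).

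Marker genes of other cells moved with the fractions, and those called were mostly lower in resident-like macrophages. The 11 markers of plasmacytoid dendritic cells summed to 412, 500.2 and 435 CPM in resident-like macrophages and to 2491, 1599 and 1663 CPM in classical monocytes, with 10 lower, 0 higher and 1 not called. Fibroblast markers summed to 443, 575 and 659 CPM against 8362, 7139 and 4801 CPM, and all 17 were lower, among them the collagen *Col1a1* (59.1 against 922 CPM, -3.96), the matrix protein *Dpt* (12 against 198 CPM, -4.05) and the proteoglycan *Lum* (11.4 against 162 CPM, -3.83). T cell markers summed to 276 to 324 CPM against 724 to 1017 CPM, with 23 of 25 lower and *Il7r* (162 against 127 CPM, 0.36), the IL-7 receptor, higher. *Il7r* lost its call without resident-like replicate 2 or classical monocyte replicate 2 or 3 (adjusted p of 0.0593 to 0.0688) and with library size only (0.23). Markers of NK and innate lymphoid cells summed to 211 to 288 CPM against 853 to 1336 CPM, with 11 of 15 lower, among them the cytotoxic granule genes *Nkg7* (3.69 against 83.5 CPM, -4.50) and *Prf1* (2.05 against 45.3 CPM, -4.47), while the lectin *Klrb1b* (14.4 against 2.45 CPM, 2.54) was higher. Eosinophil markers went the other way, at 198 to 244 CPM against 32.2 to 49.9 CPM, with 6 of 7 tested higher, among them *Ear2* (166 against 23.7 CPM, 2.81), which has the near-identical paralog *Ear1*, and *Siglecf* (2.34 against 0.193 CPM), whose protein the sort excluded. The eosinophil granule genes *Epx* and *Prg2* were at 0.581 CPM or less in both means. Of the mean eosinophil sum of 217 CPM in resident-like macrophages, *Ear2* held 166 CPM. Markers of basophils and mast cells were at 159 to 299 CPM against 75.2 to 136 CPM, with 6 of 12 higher, including the mast cell tryptase *Tpsab1* (37.7 against 6.52 CPM, 2.55), which shares sequence with *Tpsb2*. Neutrophil markers summed to 634 to 828 CPM against 247 to 278 CPM, with 3 of 15 higher and 5 lower. The higher ones were *Retnlg* (43.8 against 2.69 CPM, 4.02), *Mmp9* (47.9 against 4.91 CPM, 3.28) and *Il1r2* (569 against 110.5 CPM, 2.37), while the neutrophil granule genes *Camp*, *Ltf*, *Elane* and *Ngp* were at or near 0 and not tested. The 5 lower ones are not named here. *Il1r2* alone held 569 of the mean neutrophil sum of 757 CPM in resident-like macrophages, and the median log2 fold change of the list was 0.06. Keratinocyte markers overlapped, at 3795 to 4437 CPM against 3007 to 6616 CPM, with 0 higher and 0 lower of 16, where the background was 23.7%, although 5 were lower without classical monocyte replicate 3. Endothelial (0 higher, 1 lower of 16), melanocyte and Schwann cell (0 and 0 of 8) and skeletal muscle markers (0 and 1 of 11) had few calls. Of 10 B and plasma cell markers 0 were higher and 3 lower, or 30% called against 23.7% of all genes. They summed to 188 to 205 CPM against 214 to 303 CPM. The lower genes of these lists were *Kdr* (2.94 against 11.8 CPM, -2.01), a VEGF receptor, the B lineage genes *Igkc* (0.565 against 16.2 CPM, -4.80), *Ighd* and *Ebf1* (3.53 against 16.5 CPM, -2.24), and the muscle calcium pump *Atp2a1* (2.43 against 14.9 CPM, -2.60). *Atp2a1* lost its call without classical monocyte replicate 1 (adjusted p = 0.0519) or resident-like replicate 2 (0.0614). The part of these cells in the results was not tested.

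**Figure D3:**
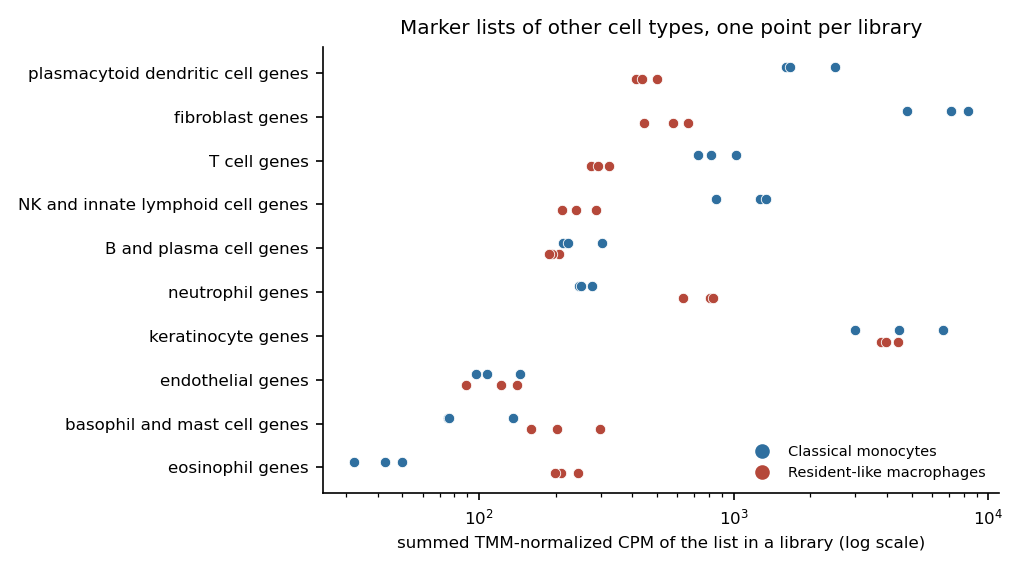
Summed TMM-normalized CPM of 10 marker lists on a log scale, 1 point per library. The plasmacytoid dendritic cell, fibroblast, T cell, NK and B and plasma cell lists lie higher in all 3 classical monocyte libraries. The neutrophil, basophil and mast cell and eosinophil lists lie higher in all 3 resident-like libraries, and *Il1r2* alone held most of the neutrophil sum there. The keratinocyte and endothelial lists overlap.

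Some markers of Langerhans cells, the antigen-presenting cells of the epidermis, were among the largest differences. *Cd207*, which encodes langerin and is carried by Langerhans cells and some dermal dendritic cells, was at 678, 857 and 918 CPM in resident-like macrophages and at 34.5, 48.8 and 31.1 CPM in classical monocytes. The lowest resident-like library was more than 10-fold above the highest classical monocyte library (log2 fold change 4.42 ± 0.18, adjusted p = 1.5e-10). In early and late CMDMs *Cd207* was at 64.3 ± 10.0 and 39.1 ± 3.19 CPM. *Mfge8*, a bridge between dying cells and phagocytes, was at 691, 804 and 843 CPM against 67.1, 64 and 47.9 CPM (log2 fold change 3.71 ± 0.14, adjusted p = 5.3e-11). *Epcam*, the adhesion molecule of epithelia and Langerhans cells, was at 182, 237 and 236 CPM against 33.5, 46.4 and 24 CPM (log2 fold change 2.65 ± 0.23, adjusted p = 1.5e-06), while the keratinocyte markers overlapped. *Ly75*, which encodes the endocytic receptor DEC-205, was at 45.1, 47.2 and 33 CPM against 7.19, 5.6 and 7.74 CPM. Each of these genes was without overlap between the fractions. Of the 11 genes of the list, 6 were higher, 1 was lower and 4 were not called, with a median log2 fold change of 0.46. The lower one, *Ctsw* (1.62 against 42.7 CPM, -4.72), encodes a protease best known from cytotoxic lymphocytes. *Cdh1*, the E-cadherin that holds Langerhans cells among keratinocytes, was higher by 0.97 ± 0.17 on the log2 scale.

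Genes of conventional dendritic cells went both ways: of 28 tested, 12 were higher, 9 lower and 7 not called, with a median of 0.23. The higher members included the lectin *Mgl2* (917 against 103 CPM, 3.16), the lectins *Cd209a* (554 against 141 CPM, 1.98) and *Clec10a* (333 against 132 CPM, 1.33), the chemokine *Ccl22* (22.7 against 3.43 CPM, 2.73) and the transcription factor *Irf4* (111 against 51.6 CPM, 1.10), which dermal type 2 dendritic cells use. *Mgl2* was at 859, 905 and 987 CPM in resident-like macrophages and at 112, 107 and 89.6 CPM in classical monocytes, 8.91-fold apart and without overlap. The lower members included *Clec9a* (0.438 against 8.35 CPM, -4.22), *Itgae* (1.35 against 5.67 CPM, -2.09) and *Irf8* (139.8 against 391 CPM, -1.48), genes of type 1 dendritic cells, *Flt3* (26.9 against 68.8 CPM, -1.35), the receptor for the dendritic cell growth factor, and *Klrd1* (4.19 against 40.0 CPM, -3.25), which NK cells also express. Not all genes of type 1 dendritic cells were lower, since their factor *Batf3* was higher, with values given below among the transcription factors. *Ccr7*, the receptor that guides migrating dendritic cells to lymph nodes, was at 30.6 ± 4.51 and 35.2 ± 3.03 CPM (adjusted p = 0.342), and *Zbtb46*, a transcription factor of conventional dendritic cells, at 11.9 ± 1.58 and 10.4 ± 2.52 CPM (adjusted p = 0.468).

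C-type lectin receptors, which bind sugars on microbes and self proteins, were higher more often than lower, with 13 higher, 5 lower and 9 not called of 27 tested and a median of 0.77. Beside *Cd207*, *Mgl2*, *Ly75* and *Mrc1*, the Cd209 genes *Cd209b* (55.9 against 7.33 CPM, 2.93) and *Cd209d* (379 against 149 CPM, 1.34) and the Clec4 gene *Clec4b1* (103 against 24 CPM, 2.11) were higher. These families hold near-identical genes, between which reads could be split. The lower members included *Clec4d* (102 against 288 CPM, -1.50) and *Clec7a* (236 against 407 CPM, -0.79), which encodes Dectin-1, a receptor for fungal glucan.

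MHC class II genes, whose products hold antigen peptides for CD4 T cells, were among the most abundant genes called. Their 16 members summed to 66669.6, 65982 and 70391 CPM in the resident-like libraries and to 21569.6, 19912 and 28020.4 CPM in the classical monocyte libraries, with 10 higher, 1 lower, 5 not called and a median of 1.39. *Cd74*, the invariant chain that guides class II molecules to endosomes, was at 32594, 31554 and 33096 CPM against 9593, 8628 and 12278 CPM (log2 fold change 1.67 ± 0.15, adjusted p = 4.2e-07). *H2-Ab1*, a beta chain, was at 10846, 10824 and 11728 CPM against 3429, 3265 and 4781 CPM (log2 fold change 1.54 ± 0.16, adjusted p = 1.8e-06), and *H2-Aa*, its alpha chain, was higher by 1.47 ± 0.14 on the log2 scale. *H2-Eb1* and *H2-Ea*, the chains of the other class II molecule of BALB/c mice, were higher by 1.79 ± 0.15 and 1.63 ± 0.16. Every one of these genes was higher in all 3 resident-like libraries. The peptide loading genes *H2-DMa* (1.35), *H2-DMb1* (1.65) and *H2-DMb2* (1.68) and the master regulator *Ciita* (143 against 52.9 CPM, 1.43 ± 0.13) were higher by about as much on the log2 scale. The lower member was *Rfxap* (16.6 against 24.6 CPM, -0.57), a subunit of the RFX factor that binds class II promoters, and its call was lost with the pan-leukocyte scaling (adjusted p = 0.156). The subunits *Rfx5* and *Rfxank* were not called (adjusted p = 0.294 and 0.53).

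Class II promoters are known for a Y box, an inverted CCAAT motif next to the start site, and stretches of 3 promoters of class II genes that moved together are shown. The stretches are cut around the motif from RefSeq promoter windows of GRCm38.p6, which run from 250 bases before to 50 bases after each start, and they are written 5′ to 3′ on the strand of the gene. Capitals mark CCAAT or its reverse complement ATTGG. In *H2-DMa* the marked match lies much further from the start site than in the other two, so it does not have the place of a Y box.
H2-Aa, chr17:34287819-34287919, minus strand: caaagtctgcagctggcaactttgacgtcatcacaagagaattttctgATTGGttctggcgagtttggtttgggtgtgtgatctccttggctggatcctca
H2-Eb1, chr17:34305760-34305860, plus strand: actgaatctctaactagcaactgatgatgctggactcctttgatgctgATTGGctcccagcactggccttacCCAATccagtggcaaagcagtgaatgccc
H2-DMa, chr17:34125272-34125372, plus strand: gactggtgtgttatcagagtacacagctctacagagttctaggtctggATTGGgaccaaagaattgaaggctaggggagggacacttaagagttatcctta
All 7 of the higher class II genes that have a window held CCAAT on at least 1 strand, as did 3 of 5 class II genes that were not called. Of all 27025 genes with a window, 41.1% held it. A match is a description of letters and not a binding site.

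**Figure D4:**
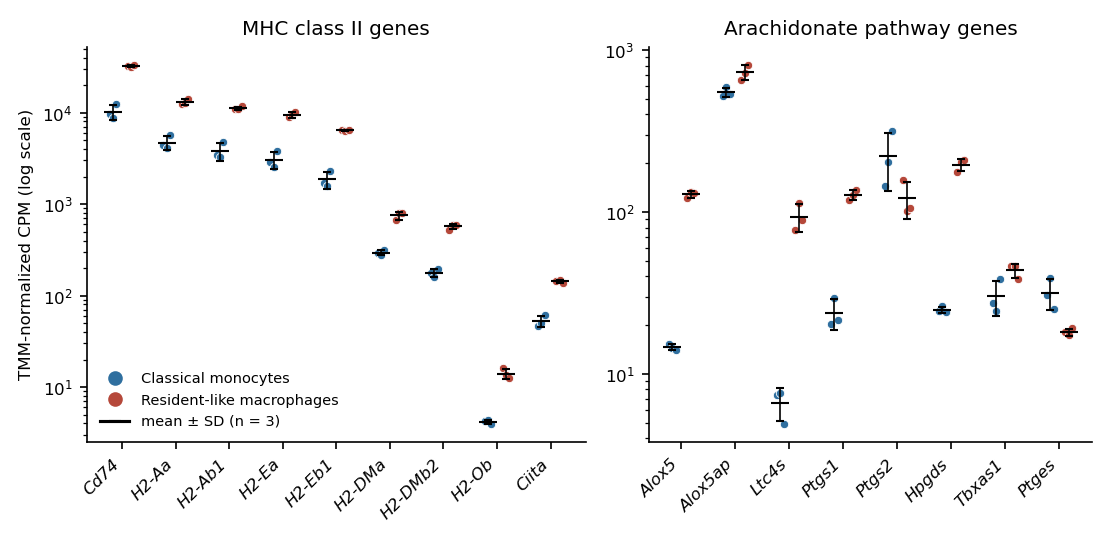
TMM-normalized CPM on a log scale in each library, with mean ± SD, for 9 MHC class II genes (left) and 8 arachidonate pathway genes (right). All 9 class II genes and *Alox5*, *Ltc4s*, *Ptgs1* and *Hpgds* were higher in every resident-like library, and *Ptgs2* and *Ptges* had the lower mean there.

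Of MHC class I genes, which show peptides to CD8 T cells, 0 of 21 tested were higher and 5 lower, with a median of -0.16. The share called was 23.8%, close to the 23.7% of all genes. The heavy chain gene *H2-D1* was at 1752 ± 76.1 and 1517 ± 97.5 CPM (adjusted p = 0.155), and reads of the class I heavy chains could be split between similar genes. The lower members were the peptide loading genes *Tapbpl* (15.3 against 24.8 CPM, -0.70) and *Tapbp* (134 against 194 CPM, -0.54), the peptide transporter *Tap1* (46.7 against 62.1 CPM, -0.41), the immunoproteasome subunit *Psmb10* (78.4 against 103 CPM, -0.39) and the regulator *Nlrc5* (22 against 27.4 CPM, -0.32). With library size only 11 were lower, and with the pan-leukocyte scaling 0 were lower and 1 was higher, so the direction of this list rests on the scaling. Without classical monocyte replicate 1 the count was 2, and *Tap1*, *Psmb10* and *Nlrc5* lost their calls (adjusted p = 0.118, 0.0779 and 0.188). *Tap1* also lost its call without any 1 other library except classical monocyte replicate 2 (0.102 to 0.238) and with the 6 libraries alone (0.094), *Nlrc5* without resident-like replicate 2 or 3 or classical monocyte replicate 3 (0.0952 to 0.164), with the 6 libraries alone (0.119) and without the filter (0.115), and *Psmb10* without resident-like replicate 1 (0.0652).

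Of 14 co-stimulatory molecules tested, 7 were higher, 3 lower and 4 not called. *Cd86*, which gives T cells their second signal, was at 279.9, 295 and 283 CPM in resident-like macrophages and at 122, 155 and 176 CPM in classical monocytes (log2 fold change 0.92 ± 0.13, adjusted p = 6.9e-05). *Cd83*, a marker of mature antigen-presenting cells, was at 1528 ± 21.7 against 735 ± 102 CPM (log2 fold change 1.06 ± 0.13, adjusted p = 1.2e-05). Also higher was *Tnfsf9* (109 against 49.2 CPM, 1.15), the ligand of the T cell receptor 4-1BB. *Cd274*, which encodes the inhibitory ligand PD-L1, was lower, at 70.1, 63.7 and 55.3 CPM against 89.4, 87.4 and 121 CPM (log2 fold change -0.65 ± 0.16, adjusted p = 0.00714). *Cd80* was at 45 ± 2.64 and 51.3 ± 7.02 CPM and was not called (adjusted p = 0.309).

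Interferon-stimulated genes were lower in resident-like macrophages. Type I interferons act on antiviral genes through the ISRE motif in their promoters, and plasmacytoid dendritic cells are known as their strongest producers. Of 62 genes tested, 42 were lower, 2 were higher and 18 were not called, with a median log2 fold change of -0.89. The lower ones numbered 30 to 32 without classical monocyte replicate 1 or resident-like replicate 2 or 3. They numbered 29 without the filter and 51 with library size only, while the median stayed between -1.06 and -0.76. Their summed level was 2733, 3049 and 2652 CPM in the resident-like libraries and 5303, 4819 and 4339 CPM in the classical monocyte libraries. *Irf7*, the factor that amplifies interferon production, was at 49, 31.9 and 36.3 CPM against 223, 114 and 196 CPM (log2 fold change -2.18 ± 0.33, adjusted p = 4.0e-04). *Bst2*, which tethers virus particles to the cell and marks plasmacytoid dendritic cells, was at 50.8, 41.8 and 40.7 CPM against 396, 223 and 207 CPM (log2 fold change -2.63 ± 0.21, adjusted p = 4.1e-07). *Isg15*, a ubiquitin-like protein, was at 22, 18.4 and 14.8 CPM against 76.5, 36.8 and 39.8 CPM (log2 fold change -1.47 ± 0.33, adjusted p = 0.00597). The libraries did not overlap for these genes, and classical monocyte replicate 2 was the lowest of its fraction for *Irf7* and *Isg15* but not for *Bst2*. *Ifit2*, an antiviral RNA-binding protein, was at 8.93, 6.42 and 4.94 CPM against 48.3, 11 and 35.6 CPM (log2 fold change -2.22 ± 0.60, adjusted p = 0.0214), and its call was lost without classical monocyte replicate 1 (adjusted p = 0.092), without classical monocyte replicate 3 (0.0779), without resident-like replicate 2 (0.071) and without the filter (0.0644). The interferon receptor genes *Ifnar1* (187 against 315 CPM, -0.76 ± 0.11), *Ifnar2* (163 against 237 CPM, -0.54 ± 0.13) and *Ifngr1* (164 against 381 CPM, -1.21 ± 0.10) were lower too, although *Ifnar2* was not called with the pan-leukocyte scaling (adjusted p = 0.0651). The higher members were *Oasl1* (48.5 against 26.1 CPM, 0.90) and *Ifi207* (472 against 289 CPM, 0.71), the first of which lost its call without resident-like replicate 2 (adjusted p = 0.0868), classical monocyte replicate 2 (0.0667) or 3 (0.0502), without the filter (0.107) and with library size only (0.0552). Among the larger falls was also *Ifitm6* (15 against 84.5 CPM, -2.50). The summed markers of plasmacytoid dendritic cells, 412 to 500.2 CPM against 1599 to 2491 CPM, moved the same way, and their part in the interferon-stimulated genes was not tested.

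Promoter stretches of 4 lower interferon-stimulated genes (*Bst2*, *Ifit3*, *Rsad2* and *Isg15*) and of 2 that were not called (*Ifitm2* and *Ifi205*) are shown to set their ISRE cores side by side. Of these, *Rsad2* (19.4 against 67.3 CPM) lost its call without classical monocyte replicate 1 (adjusted p = 0.0817) or 3 (0.0706) or resident-like replicate 2 (0.0628) or the filter (0.0581). Capitals mark GAAANNGAAA, where N is any base, or its reverse complement TTTCNNTTTC, and neighboring matches can overlap, as in *Bst2*. They are from the same RefSeq windows, 5′ to 3′ on the strand of the gene.
Bst2, chr8:71537547-71537647, minus strand: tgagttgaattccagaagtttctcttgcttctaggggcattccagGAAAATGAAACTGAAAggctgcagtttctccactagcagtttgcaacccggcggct
Ifit3, chr19:34583328-34583428, plus strand: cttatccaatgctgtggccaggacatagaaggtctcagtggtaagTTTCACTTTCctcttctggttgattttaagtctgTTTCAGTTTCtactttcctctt
Rsad2, chr12:26456517-26456617, minus strand: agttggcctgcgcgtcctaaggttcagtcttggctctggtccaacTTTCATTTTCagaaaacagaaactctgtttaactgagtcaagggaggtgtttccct
Isg15, chr4:156200841-156200941, minus strand: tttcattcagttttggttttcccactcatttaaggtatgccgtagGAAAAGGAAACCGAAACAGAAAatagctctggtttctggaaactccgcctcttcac
Ifitm2, chr7:140955952-140956052, minus strand: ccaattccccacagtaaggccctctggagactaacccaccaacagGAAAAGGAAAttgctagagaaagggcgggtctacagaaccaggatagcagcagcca
Ifi205, chr1:174031834-174031934, minus strand: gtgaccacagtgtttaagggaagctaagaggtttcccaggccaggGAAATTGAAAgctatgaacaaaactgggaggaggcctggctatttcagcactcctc
The core stood in the window of 18 of the 32 lower genes that have one, or 56.2%, and of 10 of the 15 genes not called, or 66.7%. It stood in 3.99% of all 27025 genes with a window. Of the 2 higher genes, 1 held it. The share among the lower genes of the list was below that among the genes not called, and the difference was not tested.

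Genes for lipid mediators made from arachidonic acid were more often higher than lower. Of 26 genes, 11 were higher, 4 lower and 11 not called, with a median of 0.39. *Alox5*, the 5-lipoxygenase that starts leukotriene synthesis, was at 121, 132 and 132 CPM in resident-like macrophages and at 15.4, 14.5 and 14 CPM in classical monocytes (log2 fold change 3.13 ± 0.11, adjusted p = 5.3e-11). *Ltc4s*, which makes the cysteinyl leukotriene C4, was at 76.8, 113 and 89.7 CPM against 7.44, 7.58 and 4.9 CPM (log2 fold change 3.81 ± 0.22, adjusted p = 9.1e-09). Their libraries lay far apart, whereas *Alox5ap*, which presents arachidonic acid to 5-lipoxygenase, was at 725 ± 78.1 and 548 ± 36.2 CPM and was not called (adjusted p = 0.0711). Of the cyclooxygenases, *Ptgs1* was at 119, 127 and 136 CPM against 20.2, 29.5 and 21.4 CPM and was higher (log2 fold change 2.42 ± 0.15, adjusted p = 8.5e-09). *Ptgs2*, the inducible one, was at 157, 102 and 106 CPM against 144, 203 and 316 CPM and was lower (log2 fold change -0.87 ± 0.24, adjusted p = 0.0165), although its libraries overlapped, and the call was lost without resident-like replicate 2 (adjusted p = 0.0808) or 3 (0.0612) or classical monocyte replicate 3 (0.0552), with the 6 libraries alone (0.063) and without the filter (0.0957). *Hpgds*, the hematopoietic prostaglandin D2 synthase, was at 177, 202 and 208 CPM against 24.3, 26 and 24.1 CPM (log2 fold change 2.98 ± 0.12, adjusted p = 1.1e-10). *Ptges*, a prostaglandin E2 synthase, was lower (18.1 against 31.6 CPM, -0.80 ± 0.16). The receptors *Cysltr1* for cysteinyl leukotrienes (53.2 against 24.1 CPM) and *Ptger3* for prostaglandin E2 (15.3 against 3.55 CPM) were higher. *Ltc4s*, *Alox5*, *Hpgds* and *Ptgs1* are also genes of mast cells and eosinophils, whose marker sums, 159 to 299 and 198 to 244 CPM in resident-like macrophages against 75.2 to 136 and 32.2 to 49.9 CPM, moved the same way, and their part was not tested.

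Cytokine genes went both ways, with 12 higher, 7 lower and 16 not called of 35 tested. *Tnf* was at 176, 169.5 and 164 CPM in resident-like macrophages and at 58.6, 49 and 82.8 CPM in classical monocytes (log2 fold change 1.42 ± 0.16, adjusted p = 6.0e-06). *Il10*, which dampens inflammation, was at 77.9, 68 and 90.7 CPM against 24.3, 24.3 and 40.9 CPM (log2 fold change 1.40 ± 0.17, adjusted p = 2.1e-05). Both the inflammatory and the dampening cytokine were thus higher, as were *Il18* (43 against 16.9 CPM, 1.34) and the growth factors *Igf1* (168 against 68 CPM, 1.31) and *Pdgfb* (19.3 against 9.56 CPM, 1.01). *Il1b* was abundant in both fractions and not called, at 1048 ± 80.0 and 1151 ± 124 CPM (adjusted p = 0.572), and *Il6* was at 29 ± 7.26 and 43.9 ± 17.5 CPM (adjusted p = 0.11). The lower members included *Vegfa* (40.8 against 100.9 CPM, -1.31), which drives vessel growth, and *Csf1* (9.02 against 20.2 CPM, -1.16), the gene of M-CSF.

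Of 27 chemokine genes, 13 were higher, 6 lower and 8 not called, with a median of 0.67. Higher members that attract monocytes were *Ccl2* (278 against 123 CPM, 1.18) and *Ccl7* (319.5 against 158 CPM, 1.02), *Cxcl2* (2014 against 1212 CPM, 0.73) attracts neutrophils and *Ccl24* (103 against 58 CPM, 0.82) attracts eosinophils. *Ccl22*, a ligand of CCR4 on T cells, was at 16.6, 30.2 and 21.3 CPM against 4.55, 3.08 and 2.67 CPM (log2 fold change 2.73 ± 0.23, adjusted p = 2.7e-07). *Ccl5*, made by cytotoxic lymphocytes and myeloid cells, was lower, at 12.2, 25.4 and 17.6 CPM against 308, 205 and 191 CPM (log2 fold change -3.68 ± 0.32, adjusted p = 4.6e-06). *Ccl11* (1.57 against 16.4 CPM, -3.39), *Cxcl12* (8.17 against 38.3 CPM, -2.23) and *Cxcl14* (9.93 against 32.8 CPM, -1.72), known from fibroblasts, were lower as the fibroblast markers were. Chemokine and related receptors were lower more often, with 3 higher, 12 lower and 13 not called of 28 tested. *Ccr9*, carried by plasmacytoid dendritic cells, was at 10.3, 12.1 and 11.6 CPM against 382, 215 and 262 CPM (log2 fold change -4.66 ± 0.18, adjusted p = 1.2e-10), and *Cxcr3* (2.77 against 18.6 CPM, -2.75), carried by effector lymphocytes, was lower as well. The lipid receptor *S1pr4* (2.84 against 24.1 CPM, -3.08) of lymphocytes and the scavenging receptor *Ackr3* (5.21 against 31.8 CPM, -2.61) were lower, and *C3ar1* (419 against 217 CPM, 0.95), the receptor for complement fragment C3a, was higher (adjusted p = 0.0536 without the filter), as were *Ccr3* (5.56 against 0.655 CPM, 3.08), the eotaxin receptor of eosinophils, and *Ccr6* (4.28 against 1.82 CPM, 1.25). Without classical monocyte replicate 3, 5 receptors in place of 3 were higher.

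Integrins and other adhesion genes had 6 higher, 10 lower and 14 not called of 30. The lower members included *Itgal* (13.4 against 69 CPM, -2.36), which encodes the CD11a chain of LFA-1, *Itga4* (174 against 301 CPM, -0.79), part of the VCAM-1 receptor, and *Itgb3* (8.44 against 64.8 CPM, -2.94), while *Itgax* (82.3 against 29 CPM, 1.51), *Icam1* (508 against 273 CPM, 0.90) and the tetraspanin *Cd9* (354 against 156 CPM, 1.18) were higher. Of 26 Toll-like receptors and adaptors, 2 were higher, 5 lower and 19 not called. The share called was 26.9%, close to the 23.7% of all genes. *Tlr4*, the receptor for lipopolysaccharide, was lower at 21.7 ± 3.15 against 34.7 ± 5.47 CPM (log2 fold change -0.68 ± 0.18, adjusted p = 0.00965), and the call was lost without resident-like replicate 3 (adjusted p = 0.0548). Negative regulator *Irak3* (22.3 against 44.9 CPM, -1.01) and kinase *Irak2* (137 against 237 CPM, -0.79) of the same pathway were lower too. The higher members were *Tlr11* (3.49 against 0.900 CPM, 1.93) and the TLR4 co-receptor *Ly96* (33.5 against 25.3 CPM, 0.41), which lost its call without replicate 1 or 3 of classical monocytes or 2 or 3 of resident-like macrophages (adjusted p of 0.0638 to 0.199) and with library size only (0.234). Of 13 Fc receptors, 4 were higher, 1 lower and 8 not called. Both low-affinity IgG receptors, the activating *Fcgr3* (364 against 188 CPM, 0.95) and the inhibitory *Fcgr2b* (915 against 549 CPM, 0.74), were higher, as were *Fcer2a* (6.63 against 1.42 CPM, 2.21), the low-affinity IgE receptor CD23, and *Ms4a2* (2.88 against 0.767 CPM, 1.93), a chain of the high-affinity IgE receptor of mast cells and basophils. *Fcgr2b* lost its call without classical monocyte replicate 1 (adjusted p = 0.078), classical monocyte replicate 2 (0.0696) or resident-like replicate 3 (0.0567) and without the filter (0.104). *Fcrla*, an Fc receptor-like gene of B cells and plasmacytoid dendritic cells, was the lower one (2.12 against 54.9 CPM, -4.68).

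Genes for the uptake of dying cells were higher more often than lower. Of 32 tested, 16 were higher, 6 lower and 10 not called, with a median of 0.46. Beside *Mfge8* and C1q, the higher members included the receptors *Cd36* (173 against 67.8 CPM, 1.35), *Trem2* (200.3 against 80.2 CPM, 1.32) and *Stab1* (87.2 against 37.3 CPM, 1.22) and the bridging molecules *Gas6* (153 against 89.3 CPM, 0.77) and *Pros1* (87.2 against 55.6 CPM, 0.65). The lower members included *Havcr1* (1.22 against 14.8 CPM, -3.58), which encodes TIM-1, and the scavenger receptor *Msr1* (42.8 against 100.8 CPM, -1.24). *Axl*, a partner of GAS6, was at 27 ± 9.04 and 40.0 ± 9.82 CPM and was not called (adjusted p = 0.0844). Complement genes split evenly, with 8 higher, 8 lower and 7 not called of 23. C1q and *Cfp* (422 against 151 CPM, 1.48), which encodes properdin, were higher. *Serping1* (11.3 against 165 CPM), *C1s1* (3.69 against 39.4 CPM), *C3* (45.5 against 235 CPM) and *C1ra* (6.74 against 29.8 CPM), which fibroblasts are also known to express, were lower, as the fibroblast markers were, whose part was not tested.

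Lysosomal genes were higher in 16 of 50 cases, or 32%, and lower in 0, with a median of 0.32. The count rested on the libraries and the scaling: it was 8 without resident-like replicate 1, 9 without classical monocyte replicate 2 and 31 without classical monocyte replicate 3, and with library size only 8 were higher and 4 lower. *Cd63* (547 against 277 CPM, 0.98), *Ctsb* (3204 against 2039 CPM, 0.65) and *Hexa* (303 against 184 CPM, 0.72), a membrane protein, a protease and a hydrolase of the lysosome, were among the higher ones. Of 37 lipid handling genes, 8 were higher, 3 lower and 26 not called, or 29.7% called against 23.7% of all genes. The higher ones included *Lpl* (253 against 127 CPM, 1.00), the lipoprotein lipase, *Pltp* (1053 against 514 CPM, 1.04), a phospholipid transfer protein, and *Apoe* (6061 against 3798 CPM, 0.67). The triglyceride synthesis gene *Dgat1* (31.8 against 82.7 CPM, -1.38) and the apolipoprotein *Apoc2* (2.8 against 10.5 CPM, -1.91) were among the lower ones. Of 20 iron and heme genes tested, 8 were higher, 2 lower and 10 not called, and 0 were lower without replicate 2 of either fraction. Together with *Cd163*, the heme enzymes *Hmox1* (559 against 347 CPM, 0.69) and *Blvrb* (117 against 54.1 CPM, 1.12), the heme transporter *Slc48a1* (131 against 65.2 CPM, 1.00) and the transferrin receptor *Tfrc* (120.4 against 59.2 CPM, 1.02) were higher. *Slc40a1*, the iron exporter, was at 4.01 ± 2.33 and 2.19 ± 0.674 CPM (adjusted p = 0.135), and the lower ones were *Slc11a1* (87.6 against 126 CPM, -0.53), an iron transporter of phagosomes, and *Lcn2* (1.68 against 3.45 CPM, -1.04), which traps bacterial siderophores. *Slc11a1* lost its call without replicate 2 or 3 of either fraction (adjusted p of 0.0569 to 0.126) and with the pan-leukocyte scaling (0.129), and *Lcn2* without replicate 1 or 2 of either (0.0568 to 0.0665). Glycolysis and hypoxia genes had 7 higher and 7 lower of 34. *Hif1a* (75.1 against 168 CPM, -1.16), the hypoxia factor, the glucose transporter *Slc2a1* (66.6 against 106 CPM, -0.67) and the lactate exporter *Slc16a3* (44.3 against 173 CPM, -1.96) were lower, whereas *Hk2* (81.6 against 44 CPM, 0.89), a hexokinase, and *Ndrg1* (649.6 against 281 CPM, 1.21) were higher. With library size only 3 of this list were higher and 11 lower, with the pan-leukocyte scaling 7 and 4, and without classical monocyte replicate 1 the higher ones numbered 4. *Slc2a1* was not called with the pan-leukocyte scaling (adjusted p = 0.0577).

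Genes linked to alternative activation, the macrophage state that IL-4 and IL-13 induce, were higher in 17 cases, lower in 5 and not called in 8 of 30 tested, with a median of 0.55. *Retnla*, which encodes the secreted protein RELMα, was at 532, 2268 and 769 CPM in resident-like macrophages and at 106, 127 and 105 CPM in classical monocytes (log2 fold change 3.40 ± 0.50, adjusted p = 5.3e-04). All resident-like libraries were above all classical monocyte libraries, but replicate 2 held more than the other two together. *Arg1*, the arginase, overlapped widely, at 112, 85.3 and 153 CPM against 121, 107 and 387 CPM (log2 fold change -0.81 ± 0.45, adjusted p = 0.247). *Chil3*, which is used as a marker of the same state, was lower, and *Egr2* (65.5 against 35.2 CPM, 0.89) and *Klf4* (919.8 against 569 CPM, 0.69), transcription factors of it, were higher.

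Of 71 transcription factors, 32 were higher, 13 lower and 26 not called. The lower ones with the largest changes were *Runx2* (15.1 against 109 CPM, -2.86) and *Irf7* (39.1 against 178 CPM, -2.18), which plasmacytoid dendritic cells use, *Myb* (3.17 against 22.4 CPM, -2.81), a factor of blood progenitors, and *Irf8* (139.8 against 391 CPM, -1.48). The higher ones included *Maf* (137 against 77.5 CPM, 0.82), a macrophage factor, *Irf4* (111 against 51.6 CPM, 1.10), *Batf3* (31 against 14.2 CPM, 1.13), *Klf2* (428 against 189 CPM, 1.18) and *Ahrr* (23.4 against 10.7 CPM, 1.12). Of 32 myeloid growth factor and cytokine receptors, 7 were higher, 8 lower and 17 not called. *Il1r2*, the decoy receptor for IL-1, was at 447, 615 and 647 CPM against 108, 113 and 110.1 CPM (log2 fold change 2.37 ± 0.14, adjusted p = 4.8e-09). *Il1rl1*, the IL-33 receptor ST2, was at 34.1, 43.3 and 46.8 CPM against 15.3, 16.9 and 14.2 CPM (log2 fold change 1.42 ± 0.17, adjusted p = 9.1e-06).

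Cell cycle genes were higher in 29 of 45 cases and lower in 1, with a median of 0.69 and a summed level of 937, 903 and 929 CPM in resident-like macrophages against 598, 625 and 618 CPM in classical monocytes. *Mki67*, the proliferation antigen Ki-67, was at 206, 167 and 177 CPM against 63.7, 75.5 and 93.7 CPM (log2 fold change 1.24 ± 0.14, adjusted p = 7.6e-06). *Ccnb2*, a mitotic cyclin, was at 13.4, 11.3 and 13 CPM against 3.69, 5.22 and 4.79 CPM (log2 fold change 1.46 ± 0.16, adjusted p = 5.6e-06), and *Top2a*, a topoisomerase of dividing cells, was higher by 0.72 ± 0.12 on the log2 scale. The higher members included both genes of mitosis, such as *Bub1b* (5.68 against 2.43 CPM), and genes of DNA synthesis, such as *Tk1* (10.4 against 6.22 CPM), while none of the 6 Mcm genes of DNA replication in the list was called. The lower one was *Kif23* (17.2 against 23.4 CPM, -0.44), whose call was lost without classical monocyte replicate 2 (adjusted p = 0.0628) and with the pan-leukocyte scaling (0.389).

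Genes that warm tissue dissociation is known to induce were higher in the same libraries. Of 24 such genes, 19 were higher and 0 lower, and they summed to 22889.8, 23733 and 22858 CPM in the resident-like libraries and to 14149.9, 13959 and 14425 CPM in the classical monocyte libraries. Their mean sums in early and late CMDMs, 22782 and 20952 CPM, also lay above classical monocytes, so the high level is not particular to resident-like macrophages. *Fosb* was at 3551, 3697 and 3554 CPM against 1704, 1690.3 and 1643 CPM (log2 fold change 1.10 ± 0.11, adjusted p = 9.1e-07), and the heat shock gene *Hspa1a*, which has the near-identical neighbor *Hspa1b*, was at 196, 179.7 and 143 CPM against 55.4, 55.1 and 47 CPM (log2 fold change 1.72 ± 0.16, adjusted p = 7.1e-07). *Atf3*, *Jun*, *Egr1* and *Klf6*, which also stand among the transcription factors, and early response genes such as *Tnf*, *Cxcl2* and *Ccl2* were higher in the same libraries, and the part of the dissociation in them was not tested.

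Few genes of basic cell machinery were called. Of 90 cytosolic ribosomal protein genes 1 was higher and 2 lower (median -0.06), of 82 respiratory chain and ATP synthase genes 1 was higher and 2 lower, and of 39 proteasome subunits 2 were higher and 1 lower, against 23.7% of all genes called. They were *Rps4l* (higher), *Rpl31* and *Rpl39l* (lower), *Cox7a2l* (higher), *Ndufs1* and *Ndufa4l2* (lower), *Psmd14* and *Psma8* (higher) and *Psmb10* (lower). *Ndufs1* lost its call without any 1 of the 6 libraries (adjusted p of 0.0762 to 0.118), *Psma8* without any 1 other than classical monocyte replicate 1 (0.0805 to 0.192) and with DESeq2 (0.0882), *Rpl31* without resident-like replicate 1 (0.0699) or 3 (0.0563) or classical monocyte replicate 1 (0.0745), *Cox7a2l* without resident-like replicate 3 (0.0738) and *Psmb10* without replicate 1 of either fraction (0.0652 and 0.0779). With the pan-leukocyte scaling *Ndufs1*, *Rpl31*, *Psmb10* and *Cox7a2l* were not called (adjusted p of 0.0566 to 0.684), nor were *Psmd14*, *Psma8* and *Cox7a2l* with library size only (0.0734 to 0.155). With library size only, 6 ribosomal, 8 respiratory chain and 5 proteasome genes were lower. Of 10 pan-leukocyte genes 0 were higher and 3, or 30%, were lower. These were *Rac2* (145 against 284 CPM, -0.97), a GTPase of blood cells, *Coro1a* (466 against 641 CPM, -0.46), an actin regulator, and *Ptprc*. *Coro1a* lost its call without any 1 of the 6 libraries (adjusted p of 0.0528 to 0.141) and with the pan-leukocyte scaling (0.171). In the Ly6 family 5 of 15 tested genes were lower and 0 higher. Without *Ly6c1* and *Ly6c2*, the genes of the antigen that chose the fractions, 3 of 13 were lower, or 23.1%, close to the 23.7% called among all genes. These were *Ly6a* (20.2 against 205 CPM, -3.34), which encodes Sca-1 and responds to interferon, *Ly6e* (85.2 against 417 CPM, -2.29) and *Ly6i* (0.493 against 8.12 CPM, -4.01).

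**Figure D5:**
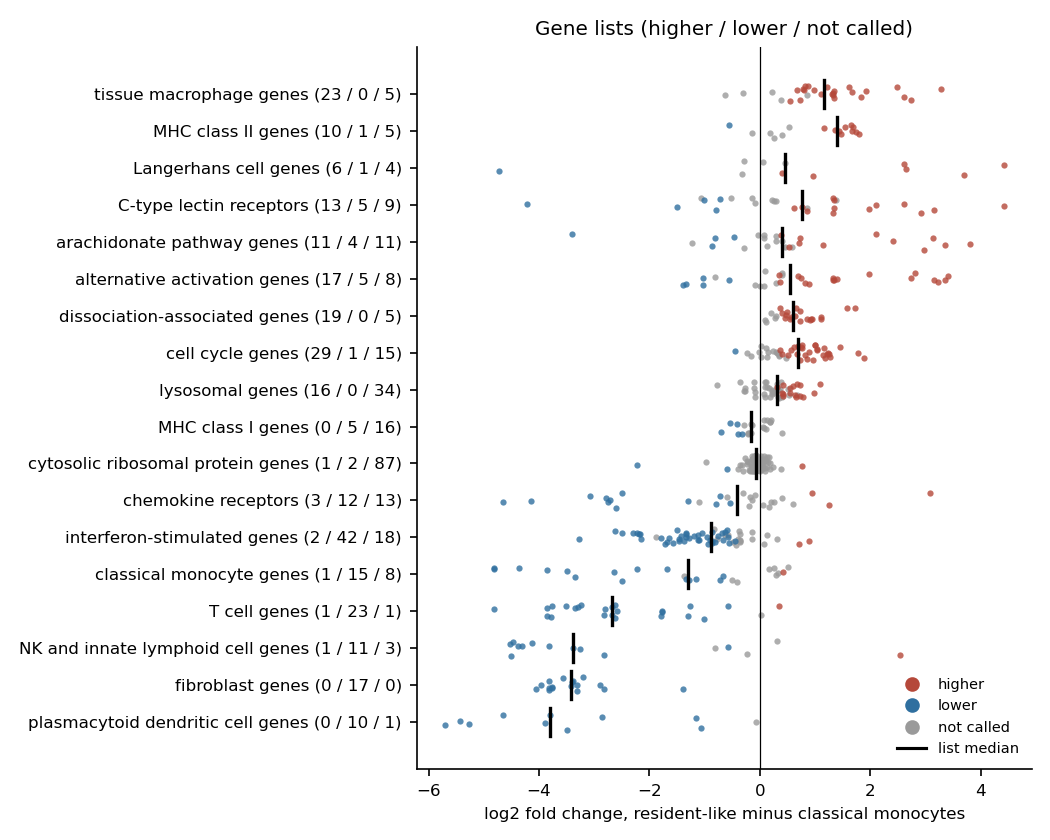
Log2 fold change, resident-like minus classical monocytes, of each tested gene of 18 lists (x axis), with list medians as black bars and the counts of genes higher, lower and not called after each name. Tissue macrophage and MHC class II genes lie right of 0, ribosomal protein genes around 0, and interferon-stimulated, fibroblast and plasmacytoid dendritic cell genes left of it.

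The most abundant genes called, beside those of MHC class II, were *Tmsb4x* (7939.7 against 5682 CPM, 0.48), an actin-binding protein, and *Vim* (6297 against 4049.6 CPM, 0.64), an intermediate filament. *Tmsb4x* was no longer called without resident-like replicate 2 (adjusted p = 0.109) or 3 (0.0767) or classical monocyte replicate 3 (0.0803), or with library size only (0.146). Of the 12 higher genes with the largest differences and a mean of at least 10 CPM in the higher fraction, several are known from skin or from mononuclear phagocytes. *Mucl1*, a mucin-like secreted protein, was at 128, 442 and 216 CPM in resident-like macrophages and at 8.36, 9.33 and 8.79 CPM in classical monocytes (log2 fold change 4.89 ± 0.45, adjusted p = 1.4e-05). Its resident-like libraries differed by more than 3-fold among themselves. *Fcrls*, an Fc receptor-like gene of resident macrophages and microglia, was at 83.4, 143 and 83.7 CPM against 6.27, 6.97 and 6.79 CPM (log2 fold change 3.95 ± 0.25, adjusted p = 7.8e-08). *P2rx2*, an ATP-gated ion channel, was at 33.4, 42 and 43 CPM against 1.6, 3.18 and 1.84 CPM (log2 fold change 4.15 ± 0.21, adjusted p = 1.1e-09), and *Lpar3*, a receptor for lysophosphatidic acid, at 37, 47.3 and 45.5 CPM against 3.07, 3.29 and 3.4 CPM (log2 fold change 3.73 ± 0.16, adjusted p = 1.2e-10). The amino acid transporter *Slc36a2* (25 against 1.48 CPM, 4.07), the non-classical MHC gene *H2-M5* (29 against 2.06 CPM, 3.81), the matrix linker *Hapln3* (26 against 1.93 CPM, 3.75) and the tetraspanin *Tspan8* (17.2 against 1.3 CPM, 3.71) completed them, together with *Cd207*, *Retnlg*, *Ltc4s* and *Mfge8*. None of these genes overlapped between the fractions.

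Among the largest differences toward classical monocytes, *Tmem108*, a transmembrane protein, had 3 counts or fewer in each resident-like library and was at 17, 6.53 and 8.13 CPM in classical monocytes. Its summed counts were 5 against 542, a ratio of 108 per effective library size toward classical monocytes (exact binomial 95% confidence interval 45.9 to 333, counting error only). *Spib*, a transcription factor of plasmacytoid dendritic cells and B cells, was at 8.23, 7.93 and 9.23 CPM against 525, 225 and 343 CPM (log2 fold change -5.43 ± 0.26, adjusted p = 4.6e-09). *Klk1*, a kallikrein protease, was at 4.47, 5.94 and 5.64 CPM against 420.4, 196 and 223 CPM (log2 fold change -5.71 ± 0.27, adjusted p = 4.8e-09), and its paralogs *Klk1b5* (0.384 against 17.6 CPM, -5.49) and *Klk1b27* (0.886 against 33.3 CPM, -5.22) were lower too, although reads of this family could be split among its members. *Dntt* (0.666 against 24.5 CPM), the DNA polymerase of lymphoid progenitors, *Mzb1* (0.367 against 13.2 CPM), a chaperone of antibody-secreting and plasmacytoid dendritic cells, *Pacsin1* (0.989 against 37.9 CPM), an endocytic adaptor, *D13Ertd608e* (1.63 against 82 CPM), *Sla2* (2.28 against 72.3 CPM), an adaptor of lymphocyte receptors, and *Siglech* (21 against 293 CPM, -3.80 ± 0.23), an endocytic receptor of plasmacytoid dendritic cells, were lower as well. *Cd8a*, carried by cytotoxic T cells and some dendritic cells, was at 1.24, 1.64 and 1.88 CPM against 51.9, 38.8 and 43 CPM (log2 fold change -4.81 ± 0.20, adjusted p = 1.2e-10), and the granzyme *Gzma* of cytotoxic lymphocytes at 12.7, 14.7 and 17.3 CPM against 431, 245 and 357 CPM (log2 fold change -4.53 ± 0.19, adjusted p = 2.2e-10). For each of these genes every resident-like library was below every classical monocyte library, and the marker sums of plasmacytoid dendritic cells, T cells and NK cells were higher in the same libraries, as given above.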

How the data were processed

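Bulk RNA-seq of sorted skin Mo-Mac fractions was taken from the gene table of raw read counts that the authors deposited for 12 libraries, 3 each of 4 fractions. Messenger RNA had been selected with oligo(dT) and sequenced on a NovaSeq. The authors trimmed reads with cutadapt 4.1 and mapped them with Bowtie2 2.4.5 to reference RNA of GRCm38, a mapping in which reads of similar genes can be split; use of strand is not given in the sources used here. Libraries were grouped by the cell subtype in the labels. Counts were filtered with filterByExpr by fraction, TMM-normalized and fitted with edgeR 4.0.16 (R 4.3.3), robust quasi-likelihood, on all 12 libraries, which share 1 estimate of spread; resident-like was contrasted with classical monocytes, two-sided, with Benjamini-Hochberg adjustment over 22118 genes and an adjusted p of 0.05. The standard error is the log2 fold change over the root of F. With 3 libraries per fraction the replicates differed beyond counting noise (ratio of chi-square to degrees of freedom 7.51 to 22.8). The script was tested on simulated counts of 21575 genes for this comparison, where 82 of 100 genes changed 2-fold and 91 of 100 changed 3-fold were recovered with 17 false calls. Only well-counted genes were changed there, and far fewer than the 5252 called in the data, so these rates do not carry over to the data. Of the tested genes 96.6% had a position in the GENCODE annotation.

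The members and the 46 gene lists were chosen with earlier results of these data known. Named genes follow a rule: the sort and lineage genes, the 12 called genes with the largest change each way among those without overlap and with at least 10 CPM in the higher fraction, up to 4 called and 2 uncalled members of each list, and the 6 most abundant called genes. Of 257 genes named with a value of their own, 104 fall outside it and were chosen for their role after their values were seen. Some genes that the rule names are not reported here. A list is described by its counts and in many cases its median, to be read beside the 23.7% called among all genes. The shares called were 71.4% for co-stimulatory molecules, 54.3% for cytokines, 53.6% for chemokine receptors and 53.3% for integrins and adhesion genes. They were 38.5% for Fc receptors, 41.2% for glycolysis and hypoxia genes, 63.4% for transcription factors and 46.9% for myeloid growth factor receptors. Alternatives were other size factors (RLE, DEGES, library size only, pan-leukocyte genes), filters and thresholds, the 6 libraries alone, DESeq2 1.42.0, a replicate block and leaving out each library.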

Additional observations from a re-analysis of the deposited data

How the results depend on the processing

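With library size only, 1441 genes were higher and 4529 lower in resident-like macrophages, and with the pan-leukocyte scaling 1658 were lower. An adjusted p under 0.01 called 3427 genes, of which 1497 were higher, and a fold of at least 2 called 2272, of which 748 were higher and 1524 lower. Leaving out each library in turn gave 4269 to 5218 calls, 1960 to 2443 higher and 2309 to 2775 lower. Calls numbered 5254 with RLE size factors, 5205 with DEGES, 5356 without the filter, 4567 with 10 counts in each of the 6 libraries, 4252 with the 6 libraries alone, 5303 with DESeq2 and 6442 at an adjusted p under 0.1. With a replicate block the count was 5728, with 2630 higher and 3098 lower. Libraries of the same number correlated at -0.0987, 0.0935 and -0.0569 in their deviations, and not every library correlated best with its own number. Correlations this weak over all genes cannot decide whether the numbers pair the libraries. In both fractions replicate 2 had the highest keratinocyte sum (4437 CPM in resident-like and 6616 CPM in classical monocytes). It also had the lowest lysosomal sum in both (17836 and 14362 CPM). A shared replicate effect was not tested. Of the named genes, log2 fold changes that were not called turned sign for *Arg1* (-1.12 to 0.0395 over the left-out libraries, the highest without classical monocyte replicate 3), *Ccr2* (-0.00232 with library size only) and *Il1b* (0.000617 with the pan-leukocyte scaling). The cause of these moves was not tested. Depth limits the genes near 3 counts per library, such as *Tmem108* and *Siglecf*.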
